A study of Mus musculus with 19 samples.

Results

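The nuclear genes for subunits of respiratory complexes II, III and IV and of the ATP synthase (complex V) were examined in microglia-enriched brain homogenates of mice that overexpress human α-synuclein. The set comprised the protein-coding genes of the GENCODE M21 mouse annotation named Sdha, Sdhb, Sdhc, Sdhd or Cyc1 or with symbols beginning Uqcr, Cox4, Cox5, Cox6, Cox7, Cox8 or Atp5, with a normalized count of at least 10 in 3 or more libraries. Of 48 such genes in the files 47 met the filter, among 23973 genes tested in all. They were 4 genes of complex II, 9 of complex III, 17 of complex IV and 17 of complex V. Cox8c, a further complex IV isoform, reached at most 2.57 and was not tested.

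Complex II passes electrons from succinate to ubiquinone, complex III passes them from ubiquinol to cytochrome c, and complex IV oxidises cytochrome c while reducing oxygen to water. Complexes III and IV pump protons across the inner mitochondrial membrane, and complex V uses their return to make ATP. Complex II is encoded wholly in the nucleus, whereas complexes III, IV and V combine nuclear subunits with a few made inside the mitochondrion. Several subunits of complex IV have alternative genes that are known for heart and skeletal muscle, lung or testis, and the c subunit of complex V is made from a family of genes whose mature protein is the same.

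RNA was sequenced from 19 mice with 1 library each. HEM mice overexpress full-length human wild-type α-synuclein from an X-linked transgene that the murine Thy-1 promoter drives, and contributed 8 libraries at 13 months of age, against 4 libraries of wild-type (WT) mice. At 3 months there were 4 HEM and 3 WT libraries. All mice had the B6D2F1/J background, the Thy-1 promoter is mainly used to drive transgenes in neurons, and the sample is a brain homogenate after microglia enrichment rather than a pure cell type. Total RNA was extracted, and each value is a gene's read count divided by 1 scaling factor per library, called a normalized count here. At 13 months the libraries held 63273388 to 95812547 counted reads in HEM mice and 93242446 to 124518160 in WT mice. At 3 months they held 74675517 to 112871955 in HEM mice and 82978462 to 106792176 in WT mice. All 15 microglial marker genes were detected in every library, and so were 12 markers of choroid plexus epithelium, 12 of neutrophils and 7 of red blood cells. The genotype was taken from the labels, and the human transgene was not measured here. Differences are log2 fold changes of the normalized count plus 1, fitted with limma over all genes and called at a Benjamini-Hochberg adjusted p under 0.05.

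The bases upstream of 1 subunit gene of each complex are shown, because respiratory genes are textbook targets of the factors NRF1 and the ETS factor GABP (also called NRF-2), which are themselves among the regulators measured below. The windows are taken from RefSeq on build GRCm38.p6, all on the minus strand and written 5′ to 3′ on the gene's own strand. They end at the base before the RefSeq start, or before the GENCODE start where that lies further upstream. Capitals mark the letters GCATGCGC for NRF1 and CCGGAAG for ETS factors, searched on both strands. A YY1 motif was searched too and was in none of these windows. The Sdhd window is chr9:50603850-50604099, that of Uqcr11 is chr10:80406831-80407071, that of Cox8b is chr7:140900447-140900696 and that of Atp5l is chr9:44920743-44920992.
Sdhd: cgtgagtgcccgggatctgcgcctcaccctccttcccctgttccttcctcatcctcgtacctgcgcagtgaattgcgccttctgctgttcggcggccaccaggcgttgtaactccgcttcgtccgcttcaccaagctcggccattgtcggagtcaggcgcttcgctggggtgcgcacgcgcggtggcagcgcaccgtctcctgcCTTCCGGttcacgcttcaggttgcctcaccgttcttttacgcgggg
Uqcr11: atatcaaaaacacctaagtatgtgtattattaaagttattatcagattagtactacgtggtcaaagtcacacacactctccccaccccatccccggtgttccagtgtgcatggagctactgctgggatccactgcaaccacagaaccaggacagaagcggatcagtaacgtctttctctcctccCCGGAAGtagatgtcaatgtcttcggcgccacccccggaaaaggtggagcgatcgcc
Cox8b: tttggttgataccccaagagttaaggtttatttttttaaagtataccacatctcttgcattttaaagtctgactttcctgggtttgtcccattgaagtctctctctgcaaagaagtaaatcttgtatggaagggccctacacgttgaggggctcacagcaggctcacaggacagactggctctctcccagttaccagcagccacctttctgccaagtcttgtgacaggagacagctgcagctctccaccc
Atp5l: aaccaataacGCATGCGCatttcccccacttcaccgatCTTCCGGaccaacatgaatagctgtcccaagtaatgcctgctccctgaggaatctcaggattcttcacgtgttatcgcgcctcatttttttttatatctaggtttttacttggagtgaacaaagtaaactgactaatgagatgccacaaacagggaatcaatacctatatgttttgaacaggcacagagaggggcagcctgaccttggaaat
Sdhd had the ETS letters 46 bases before its RefSeq start and Uqcr11 had them 66 bases before. Atp5l had them at 212 bases and the NRF1 letters at 240 bases. The window of Cox8b, the muscle form of a complex IV subunit, held neither, which says only that these letters are not in it. Among all 27025 genes with a RefSeq window of 250 bases, 7.83% held the ETS letters, 2.56% the NRF1 letters and 0.359% the YY1 motif. A share over the subunit genes is not given, because only 34 of the 47 genes, or 72.3%, matched the table, under the 80% needed. The genes shown were picked by name and not by a rule. How often the letters occur among the subunit genes cannot be read from them.

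At 13 months the subunit genes were lower in HEM than in WT mice as a body. Of 47 genes, 42 were called lower and 0 higher, while 7.3% of all genes tested were called lower and 4.87% higher. The count was 4 of 4 in complex II, 9 of 9 in complex III, 13 of 17 in complex IV and 16 of 17 in complex V. The median log2 fold change was -0.52 in complex II, -0.66 in complex III, -0.63 in complex IV and -0.65 in complex V, and -0.63 over the 47 genes, beside 0.03 over all genes tested. The 5 genes not called were Cox4i2, Cox6a2, Cox7a2l and Cox7b2 of complex IV and Atp5s of complex V. In a homogenate, fewer cells of a type and less RNA per cell cannot be told apart.

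**Figure D1:**
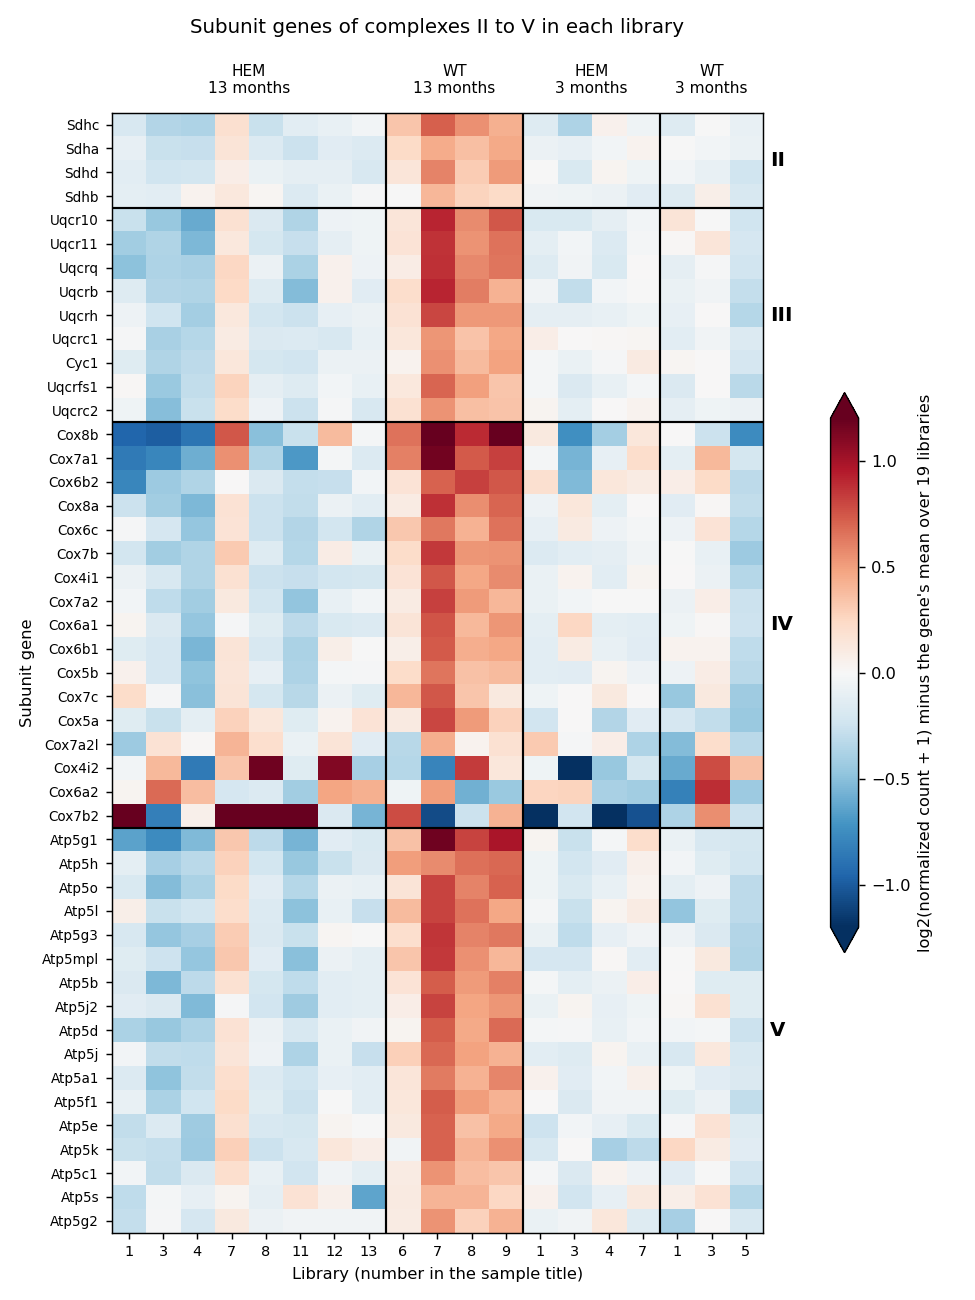
Each row is a subunit gene and each column a library, and the colour gives log2(normalized count + 1) minus the gene's mean over the 19 libraries, with colours capped at the ends of the bar. The WT libraries at 13 months form a raised block over nearly every row, HEM library 7 at 13 months is pale red where the other HEM libraries are mostly blue, and Cox4i2, Cox6a2, Cox7a2l and Cox7b2 do not share the pattern.

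Complex II is succinate dehydrogenase. Sdha, the flavoprotein that oxidises succinate (chr13:74322254-74350280, mm10), had a lowest of 22565, a median of 24313 and a highest of 30384 normalized counts in the 8 HEM libraries at 13 months, against 31905, 37107, 34935 and 37328 in the 4 WT libraries. The highest HEM value lay below the lowest WT value. The difference was -0.52 ± 0.08 (SE, adjusted p = 0.00176). Sdhc, a membrane anchor, also showed no overlap, and had a lowest of 9480.0, a median of 11017 and a highest of 14072 in HEM mice, against 15444, 20160.3, 17931 and 16466 in WT mice, a difference of -0.66 ± 0.10 (SE, adjusted p = 0.00185). Sdhd, the other anchor, differed by -0.51, again without overlap between the groups. Sdhb, the iron-sulfur subunit that passes electrons to ubiquinone, moved least of the called genes. It had a lowest of 7417, a median of 8066 and a highest of 9078 in HEM mice, against 8316, 10968, 10022 and 9759 in WT mice. The groups overlapped in 3 HEM libraries, and the difference was -0.26 ± 0.08 (SE, adjusted p = 0.0316).

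All 9 subunit genes of complex III were called lower. The redox carriers Cyc1 (cytochrome c1) and Uqcrfs1 (the Rieske iron-sulfur protein) differed by -0.52 and -0.52, and the core proteins Uqcrc1 and Uqcrc2 by -0.53 and -0.50. The 5 small subunits, Uqcrb, Uqcrh, Uqcrq, Uqcr10 and Uqcr11, ran lower, between -0.82 and -0.66 with a median of -0.73. Uqcr11, whose promoter window is printed above, had a lowest of 6578, a median of 8084 and a highest of 10461 normalized counts in HEM mice at 13 months, against 10708, 17496, 13941 and 15070.5 in WT mice. No HEM library reached the lowest WT library, and the difference was -0.79 ± 0.12 (SE, adjusted p = 0.00185). Uqcrh, the hinge protein that contacts cytochrome c1, averaged 9091 ± 1039 in HEM mice and 14443 ± 2557 in WT mice (SD, n = 8 and 4), a difference of -0.66 ± 0.11 (SE, adjusted p = 0.00192). The largest adjusted p of the complex was that of Uqcrfs1, at -0.52 ± 0.12 (SE, adjusted p = 0.00687).

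In complex IV the main forms of the subunits differed by like amounts, while the alternative forms were mixed. The 10 main forms, Cox4i1, Cox5a, Cox5b, Cox6a1, Cox6b1, Cox6c, Cox7a2, Cox7b, Cox7c and Cox8a, were all called lower, between -0.78 and -0.43 with a median of -0.64. Of the 7 alternative forms 3 were called lower, between -1.40 and -0.90, and 4 were not called. Cox6c, which has a single form, had a lowest of 9116, a median of 10622 and a highest of 14071 normalized counts in HEM mice, against 15722, 19450.1, 16780.5 and 19736 in WT mice. The groups did not overlap and the difference was -0.72 ± 0.11 (SE, adjusted p = 0.00176). Cox4i1, the main form of the regulatory subunit that binds ATP, differed by -0.66 ± 0.11 (SE, adjusted p = 0.00208), with 1 HEM library above the lowest WT library.

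The heart and skeletal muscle forms Cox8b and Cox7a1 and the testis form Cox6b2 showed the largest differences among the called genes of complex IV. Cox8b (chr7:140898945-140900446) had a lowest of 567, a median of 865 and a highest of 1896 normalized counts in the HEM libraries at 13 months, against 1768, 3484, 2102 and 2591 in the WT libraries. HEM library 7 was the only one above the lowest WT library, and the difference was -1.40 ± 0.30 (SE, adjusted p = 0.00565). Cox7a1 had a lowest of 375, a median of 489 and a highest of 988 in HEM mice, against 1027, 1515, 1130.1 and 1192 in WT mice. Those groups did not overlap, and the difference was -1.19 ± 0.23 (SE, adjusted p = 0.00311). Cox6b2 had a lowest of 1910.5, a median of 2699 and a highest of 3299 in HEM mice, against 3671, 5366, 5786 and 5489 in WT mice. It too separated the groups, with a difference of -0.90 ± 0.16 (SE, adjusted p = 0.00262).

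The other 4 complex IV genes were not called. Cox7a2l, a relative of Cox7a2 known for joining complexes III and IV into supercomplexes, had a lowest of 6941, a median of 9962 and a highest of 12403 normalized counts in HEM mice at 13 months, against 7444, 12642, 9674 and 10614 in WT mice. The groups lay over each other and the difference was -0.04 ± 0.17 (SE, adjusted p = 0.925), and its sign changed with the setting. Cox4i2, the lung form known to respond to low oxygen, had a lowest of 659.8, a median of 1327 and a highest of 2670.0 in HEM mice, against 934, 688, 2129.9 and 1308 in WT mice, a difference of 0.23 ± 0.37 (SE, adjusted p = 0.781). Cox6a2, the muscle form of Cox6a, had a lowest of 142, a median of 220.4 and a highest of 304 in HEM mice, against 183, 269, 127 and 139.5 in WT mice, a difference of 0.29 ± 0.30 (SE, adjusted p = 0.624). Cox7b2, a testis form, was read at low counts, with a lowest of 19.1, a median of 68.4 and a highest of 141 in HEM mice, against 60.2, 15.9, 28.6 and 46.5 in WT mice, and differed by 0.73 ± 0.57 (SE, adjusted p = 0.496). For Cox6a2 and Cox7b2 all 8 HEM libraries, and for Cox4i2 and Cox7a2l 7 of them, were at or above the lowest WT library.

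In complex V the catalytic head, the peripheral stalk and the small membrane subunits differed by like amounts. The F1 genes Atp5a1, Atp5b, Atp5c1, Atp5d and Atp5e were called lower between -0.70 and -0.43, with a median of -0.61. Atp5b, the catalytic β subunit, averaged 70088 ± 10250.3 normalized counts in HEM mice and 114048 ± 18232 in WT mice (SD, n = 8 and 4). The peripheral stalk genes Atp5f1, Atp5h, Atp5j and Atp5o lay between -0.82 and -0.57, with a median of -0.69. Atp5h, subunit d of that stalk, had the smallest p of all 47 genes. It had a lowest of 10746, a median of 12439.9 and a highest of 17813 in the HEM libraries, against 20855, 21862, 23318 and 23794 in the WT libraries. Every HEM value was below every WT value and the difference was -0.82 ± 0.11 (SE, adjusted p = 0.00132). The small membrane subunits Atp5j2, Atp5k, Atp5l and Atp5mpl lay between -0.73 and -0.52, with a median of -0.70. Atp5o is uncertain to the extent that 47.9% of its exon bases overlap another annotated gene. Atp5s, coupling factor B, was the member of the complex not called. It had a lowest of 626, a median of 934 and a highest of 1096 in HEM mice, against 1048, 1293, 1296 and 1157 in WT mice, a difference of -0.41 ± 0.14 (SE, adjusted p = 0.0649).

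The genes of the c ring were not lowered equally. Atp5g1 (chr11:96068852-96075670) had a lowest of 9214, a median of 11656 and a highest of 19467 normalized counts in HEM mice at 13 months, against 19809, 35017, 27372 and 30778 in WT mice. The groups did not overlap, HEM mice averaged 44.4% of the WT mean, and the difference was -1.18 ± 0.17 (SE, adjusted p = 0.0016). Atp5g3 differed by -0.72 ± 0.13 (SE, adjusted p = 0.0028) and Atp5g2 by -0.40 ± 0.09 (SE, adjusted p = 0.00847). HEM mice averaged 60.9% of the WT mean for Atp5g3 and 75.3% for Atp5g2. For each of those 2 genes 1 HEM library lay above the lowest WT library.

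**Figure D2:**
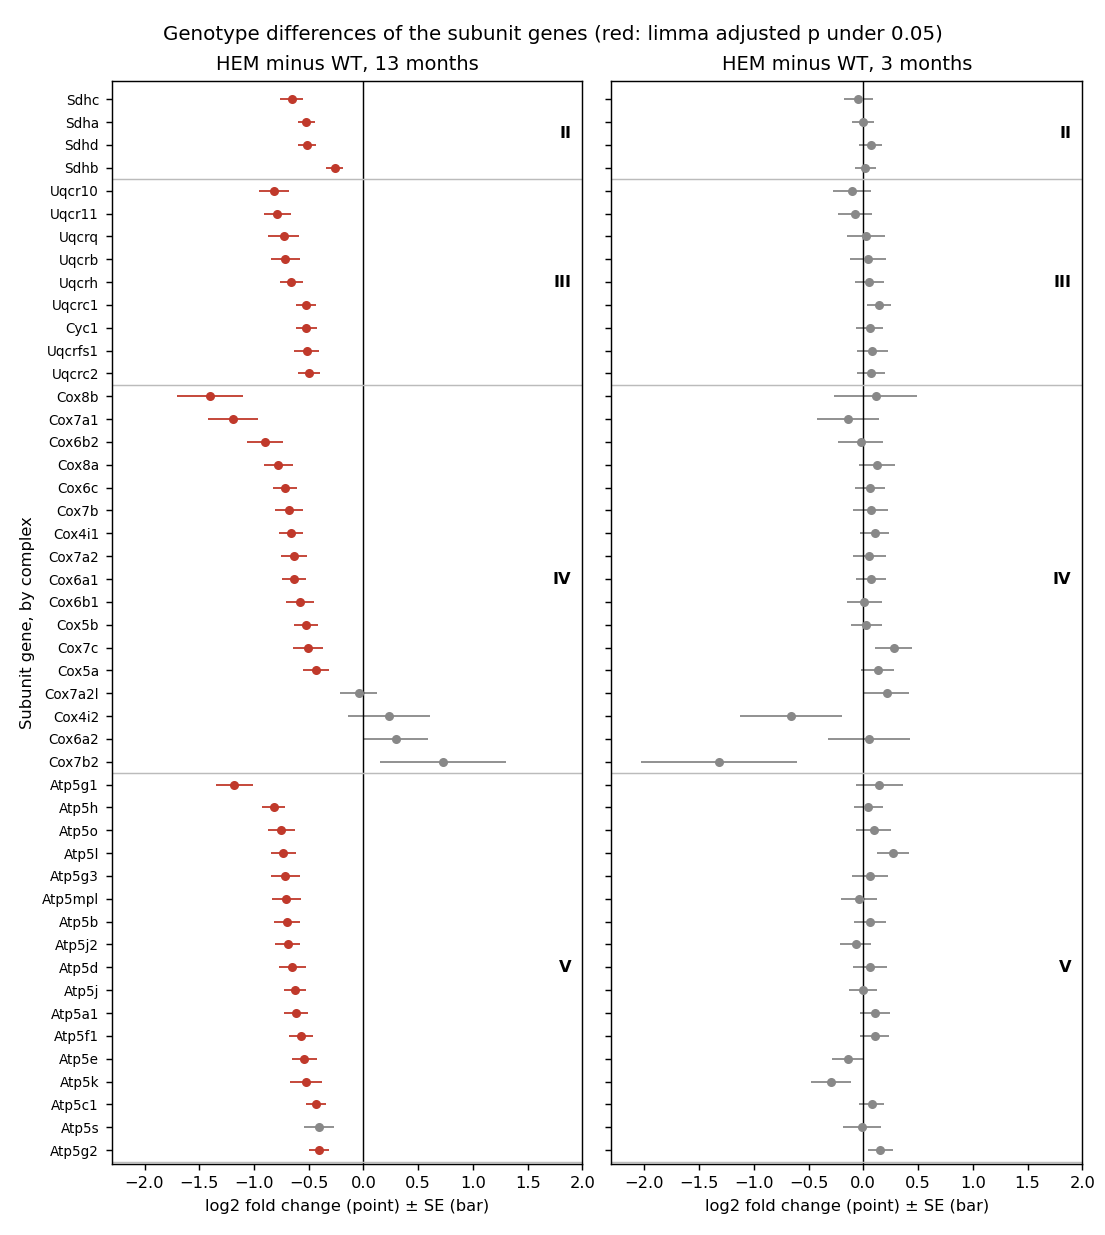
Points give the log2 fold change of each subunit gene, HEM minus WT, at 13 months on the left and at 3 months on the right, and bars give its standard error, in red where the adjusted p was under 0.05. At 13 months 42 of 47 points are red and below 0, and at 3 months 0 are red.

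Whether alternative forms moved apart was tested within libraries, as the difference of log2(normalized count + 1) between 2 genes of a pair, with exact two-sided permutation tests of HEM against WT adjusted over 16 tests, 8 pairs at each age. At 13 months 4 pairs passed. Atp5g1 minus Atp5g3 averaged -0.65 ± 0.14 in HEM mice and -0.19 ± 0.09 in WT mice (SD, n = 8 and 4, exact p = 0.00404, adjusted p = 0.0323), and the groups did not overlap. Atp5g2 minus Atp5g3 went the other way, at -1.21 ± 0.21 in HEM mice and -1.52 ± 0.10 in WT mice (exact p = 0.00808, adjusted p = 0.0431). Cox7a2l minus Cox7a2 averaged 0.69 ± 0.31 in HEM mice and 0.09 ± 0.11 in WT mice (exact p = 0.0121, adjusted p = 0.0485). Cox6a2 minus Cox6a1 averaged -6.56 ± 0.44 in HEM mice and -7.49 ± 0.43 in WT mice (exact p = 0.00404, adjusted p = 0.0323). The smallest p this design allows at 13 months is 0.00404, and leaving out any 1 of the 4 WT libraries left 0 pairs. Leaving out HEM library 3, 4, 8, 11, 12 or 13 left 2 pairs. With fewer libraries the smallest p allowed is larger, so these counts cannot tell an unstable difference from a coarser test. With 1 library left out, HEM minus WT ran from -0.50 to -0.43 for Atp5g1 minus Atp5g3 and from 0.26 to 0.36 for Atp5g2 minus Atp5g3. It ran from 0.56 to 0.68 for Cox7a2l minus Cox7a2 and from 0.80 to 1.06 for Cox6a2 minus Cox6a1.

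The other 4 pairs did not pass at 13 months. The adjusted p was 0.0517 for Cox7a1 minus Cox7a2, which differed by -0.56, and 0.0754 for Cox8b minus Cox8a, which differed by -0.62. It was 0.111 for Cox6b2 minus Cox6b1, with a difference of -0.32, and 0.145 for Cox4i2 minus Cox4i1, with a difference of 0.90. At 3 months 0 pairs passed by the exact permutation test, with 0 pairs at an unadjusted p under 0.05, and the smallest p 4 against 3 libraries allow is 0.0571. Pairs that share Cox7a2 or Atp5g3 are not independent.

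**Figure D3:**
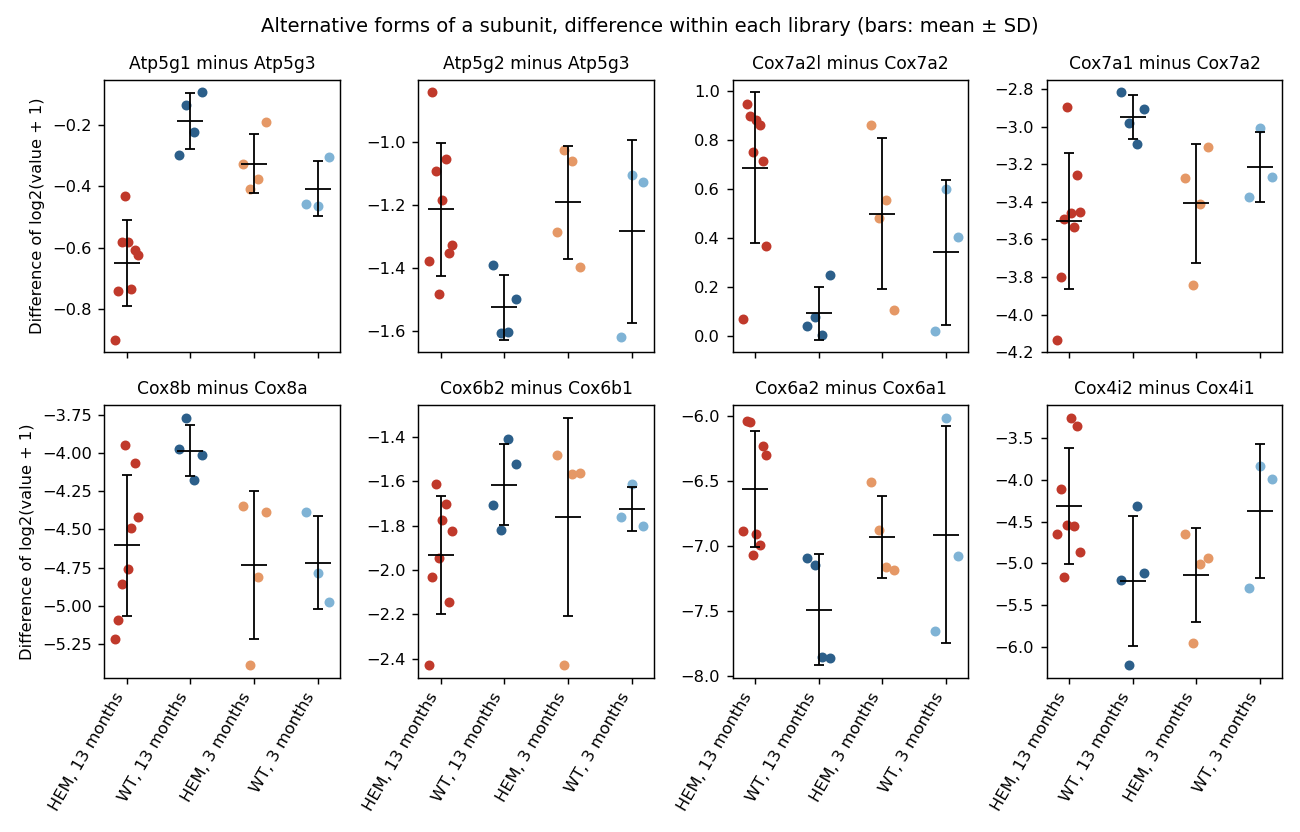
Each point is 1 library's difference in log2(normalized count + 1) between 2 forms of a subunit, by genotype and age, with the mean and SD of each group. Atp5g1 minus Atp5g3 separates HEM from WT mice at 13 months without overlap, and the Cox7a2l and Atp5g2 differences are raised in HEM mice at that age.

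Per kilobase of exon, a rough scale for setting genes against each other, the order of levels was much the same in both genotypes. Cox8a and Cox6a1 were the 2 most abundant in HEM and in WT mice at 13 months, at 36149 and 28644 normalized counts per kilobase in HEM mice and 62608 and 44735 in WT mice. Atp5a1, Cox4i1 and Atp5b took the next 3 places in both. Cox7b2, Cox6a2, Atp5s and Atp5l were the 4 lowest in both. Cox8b stood at place 37 of 47 in HEM mice and 27 in WT mice, and Cox7a2l at place 15 in HEM mice and 28 in WT mice. Such places rest on exon lengths from the annotation, and neighbouring places were not tested.

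The libraries differed within groups in a way that most subunit genes shared. In 17 of 47 genes every HEM library was below every WT library at 13 months, against 3.98% of all genes tested. HEM library 7 was at or above the lowest WT library in 29 of 47 genes, and each of the other 7 HEM libraries in 4 to 6. Without that library 38 genes separated the groups, against 6.2% of all genes, and without WT library 6, the lowest of its group, 41 did, against 8.37%. Leaving out a library cannot lower such a count, and these 2 were picked by their levels of the same genes. The rise in the count is therefore no separate result, and the shares of all genes beside it are not a like comparison. The mean log2 level over the 47 genes was 13.11 in HEM library 7 and 13.06 in WT library 6, the only pair of libraries of the 2 groups in reversed order. HEM library 7 also had the highest choroid plexus marker level of its group, at a mean log2 level of 15.20, and WT library 6 the lowest of its own, at 15.41. For red blood cell markers HEM library 7 was lowest of its group, at 14.06, and WT library 6 highest, at 14.27. HEM library 4 at 13 months had the lowest subunit level of all libraries, at 12.53. Its choroid plexus marker level was 14.86, below only HEM libraries 7 and 8 of its group. How these levels bear on one another was not tested. Both counts of genes called lower, 42 without HEM library 7, with 8.13% of all genes, and 42 without WT library 6, with 7.68%, equalled that with all libraries.

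Markers of some other cell types also differed between the genotypes, in either direction. All 12 choroid plexus markers were lower in HEM mice at 13 months, by a median of -0.94, and their summed normalized counts ranged over 2012620 to 3826090 in HEM mice and 4882460 to 5837300 in WT mice. All 12 neutrophil markers were higher, by a median of 2.14, with sums of 68408 to 602133 in HEM mice and 40641 to 112659 in WT mice. Of 7 red blood cell markers 2 were called higher, and the 7 fold changes lay between 0.94 and 2.04 with a median of 1.04. Their sums were 441532 to 1498450 in HEM mice and 287213 to 703198 in WT mice. By limma 0 of 15 microglial markers were called, with fold changes between -0.28 and 0.005 and a median of -0.19. Of the neuron, astrocyte, oligodendrocyte, endothelial and muscle markers, Aldh1l1 of astrocytes (-0.43) and Myh7 of muscle (-1.0) were called lower and 0 higher. With the choroid plexus level as a covariate 0 subunit genes, and 0% of all genes, were called by limma. The median was -0.39, and 28 of the subunit genes had an unadjusted p under 0.05, beside 1900 of the 23973 genes tested. With the neutrophil and red blood cell level 0 were called and the median was -0.53. In that fit 38 subunit genes had an unadjusted p under 0.05, beside 2281 of the 23973 genes. At 13 months the choroid plexus marker level did not overlap between the genotypes, with a highest of 15.20 in HEM and a lowest of 15.41 in WT mice. At this age the fit with the choroid plexus level cannot separate that level from the genotype. The part of each cell type in the result was not tested.

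**Figure D4:**
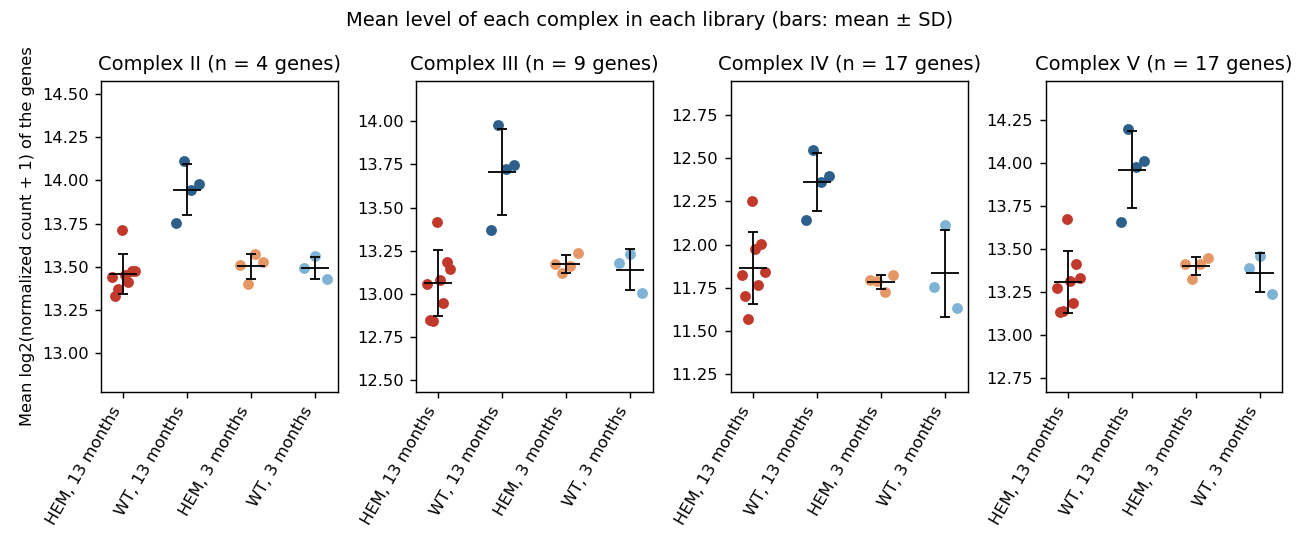
Points give each library's mean log2(normalized count + 1) over the genes of complexes II, III, IV and V, with the mean and SD of each group. In each complex the mean of the WT libraries at 13 months is highest, the single high HEM point at 13 months is library 7, and both groups at 3 months lie near the level of the HEM libraries at 13 months.

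At 3 months the subunit genes showed no genotype difference that passed the test. By limma 0 of 47 genes were called, among 0% of all genes, and 0 had an unadjusted p under 0.05. DESeq2 and edgeR called 0 of the 47 as well. In 0 of 47 genes was every HEM library below every WT library, against 2.78% of all genes, and in 1, Uqcrc1, every HEM library was above every WT library, against 3.08%. The median log2 fold change was 0.06, with 33 genes above 0 and 14 below, beside 0.01 over all genes. The direction of that median is not settled, as it was -0.033 without WT library 5 at 3 months, 0.038 without HEM library 7 and 0.101 without WT library 3. The mean log2 level over the 47 genes was 12.78 ± 0.04 in HEM mice and 12.78 ± 0.16 in WT mice (SD, n = 4 and 3). By complex the smallest p belonged to Sdhd at 0.07 ± 0.10 (SE, adjusted p = 1), Uqcrc1 at 0.14 ± 0.11 (SE, adjusted p = 1), Cox7b2 at -1.32 ± 0.71 (SE, adjusted p = 1) and Atp5l at 0.27 ± 0.15 (SE, adjusted p = 1). Atp5h averaged 13913 ± 1167 normalized counts in HEM mice and 13451 ± 899 in WT mice, and Atp5g1 averaged 15547 ± 2101 in HEM mice and 13963 ± 701 in WT mice (SD, n = 4 and 3).

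The change of the genotype difference with age was tested directly. Of 47 genes 0 were called by limma, as were 0% of all genes, although 42 of the 47 had an unadjusted p under 0.05, beside 3551 of the 23973 genes. DESeq2 called 31 of the 47 lower, with 2.35% of all genes, and limma with library quality weights 37, with 2.84% of all genes. The median difference of the 2 genotype effects, 13 minus 3 months, was -0.67, and its smallest adjusted p was 0.0742. By complex the smallest p belonged to Atp5l at -1.0 ± 0.19 (SE, adjusted p = 0.0742), Uqcrc1 at -0.67 ± 0.14 (SE, adjusted p = 0.0745), Cox4i1 at -0.77 ± 0.17 (SE, adjusted p = 0.0843) and Sdhd at -0.58 ± 0.13 (SE, adjusted p = 0.0843). Leaving out HEM library 7 at 13 months gave 22 genes called lower, with 1.03% of all genes, and leaving out WT library 6 gave 26, with 0.959% of all genes.

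In WT mice some of the subunit genes were higher at the later age. Of 47 genes 14 were called higher at 13 than at 3 months in WT mice and 0 lower, while 0.463% of all genes were called higher and 0.246% lower. They were 2 genes of complex II, 1 of complex III, 3 of complex IV and 8 of complex V. The median was 0.57, beside -0.01 over all genes, and in 36 of 47 genes every WT library at 13 months was above every WT library at 3 months, against 8.83% of all genes. Atp5l, subunit g of complex V, had 5457, 7369, 6561 and 5789.6 normalized counts in WT mice at 13 months, against 3020.2, 3789 and 3365 at 3 months. Those ages did not overlap, and the difference was 0.89 ± 0.15 (SE, adjusted p = 0.0208). The smallest p of the other complexes belonged to Uqcrh at 0.65 ± 0.13 (SE, adjusted p = 0.0336), Sdhd at 0.51 ± 0.10 (SE, adjusted p = 0.0336) and Cox5a at 0.74 ± 0.15 (SE, adjusted p = 0.0341). The count is unstable, with 0 genes called without WT library 7 or 9 at 13 months or without any 1 of the 3 WT libraries at 3 months, where at most 0.00834% of all genes were called higher. It was 35 without WT library 6 at 13 months, with 1.67% of all genes called higher, and 3 without WT library 8, with 0.154%. Since all groups share 1 estimate of the spread, it was 30 without HEM library 7 at 13 months, with 1.45% of all genes. It was 5, 9 and 6 without HEM library 8, 12 and 13 at 13 months, and 4 and 5 without HEM library 1 and 4 at 3 months, where 0.192% to 0.338% of all genes were called higher. It was 38 with DESeq2, with 3.47% of all genes, and 8 with edgeR, with 0.267%. It was 0 by limma with the choroid plexus level or the neutrophil and red blood cell level as a covariate. In those fits 36 and 39 of the subunit genes had an unadjusted p under 0.05, beside 2270 and 2512 of the 23973 genes tested.

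In HEM mice 0 of 47 genes were called between 13 and 3 months by limma, while 1.62% of all genes were, 0.684% lower and 0.934% higher. The median was -0.09 with 39 genes below 0, and 2 genes had an unadjusted p under 0.05. The median was -0.15 without HEM library 7 at 13 months, with 9 genes at an unadjusted p under 0.05, -0.058 without HEM library 4, and 0.024 with the choroid plexus level as a covariate. DESeq2 called 1 gene, higher, with 3.26% of all genes, as did limma without HEM library 3 at 13 months, with 1.72% of all genes. The smallest p of each complex belonged to Cox7b2 at 2.03 ± 0.57 (SE, adjusted p = 0.0742), Uqcrc1 at -0.19 ± 0.09 (SE, adjusted p = 0.292), Atp5g1 at -0.34 ± 0.17 (SE, adjusted p = 0.335) and Sdha at -0.11 ± 0.08 (SE, adjusted p = 0.514). The genotype comparison at 13 months and the age comparison in WT mice share the 4 WT libraries of 13 months. The age comparison in HEM mice shares the 8 HEM libraries of 13 months with that genotype comparison. Over the 47 genes the mean log2 level was 12.75 ± 0.18 in HEM mice at 13 months (n = 8), 13.33 ± 0.20 in WT mice at 13 months (n = 4), 12.78 ± 0.04 in HEM mice at 3 months (n = 4) and 12.78 ± 0.16 in WT mice at 3 months (SD, n = 3). In WT mice between the ages, limma called 1 of 9 astrocyte markers, Aldh1l1, higher at 13 months, and the list had a median of 0.52. It called 0 of 12 choroid plexus markers (median 0.61), 0 of 12 neutrophil markers (median -1.15), 0 of 7 red blood cell markers (median -1.17), 0 of 8 endothelial markers (median -1.12) and 0 of 7 muscle markers (median -1.33). In HEM mice between the ages 3 of 9 astrocyte markers (median 0.49) and 1 of 7 red blood cell markers (median 0.08) were called higher. Called lower were 2 of 8 endothelial markers (median -1.05) and 1 of 12 choroid plexus markers (median -0.49). The median was 1.64 for the neutrophil list, 0.25 for the muscle list and -0.91 for the neuron list, with 0 called in each. Apart from the covariates above, the part of these cell types in the age differences was not tested.

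Genes that work with these complexes were lower to differing extents at 13 months. Of 38 nuclear genes listed for complex I by their Nduf symbols 36 were called lower, with a median of -0.53, against 7.3% of all genes tested. The list includes Ndufa4 (-0.60), now assigned to complex IV, and its relative Ndufa4l2 (0.22), which was not called. Ndufa1, an accessory subunit of complex I, differed by -0.97 ± 0.10 (SE, adjusted p = 0.000554) and Ndufb11, another, by -0.66 ± 0.09 (SE, adjusted p = 0.00147). Cycs, the cytochrome c that carries electrons between complexes III and IV, differed by -0.60 ± 0.12 (SE, adjusted p = 0.00492). Of 33 assembly factors of complexes II to V 7 were called lower, with a median of -0.25, against the same 7.3% of all genes. The called genes with the smallest p were Coa3 at -0.61 ± 0.10 (SE, adjusted p = 0.00218) and Cox14 at -0.55 ± 0.09 (SE, adjusted p = 0.00225), both known for the early steps of complex IV assembly around mt-Co1.

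The mitochondrially encoded partners of these subunits were not called. Of 13 protein-coding genes of the mitochondrial genome 0 passed limma's test and 0 had an unadjusted p under 0.05, with a median of -0.29. Among the partners, mt-Cytb of complex III differed by -0.49 ± 0.27 (SE, adjusted p = 0.279), mt-Co1 of complex IV by -0.42 ± 0.27 (SE, adjusted p = 0.374) and mt-Atp6 of complex V by -0.29 ± 0.26 (SE, adjusted p = 0.552). The standard errors of the 13 genes lay between 0.26 and 0.31, against 0.08 to 0.17 for the called subunit genes other than Cox7a1 and Cox8b.

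Among 13 regulators of respiratory genes 3 were called lower and 1 higher, with a median of -0.08. Of all genes tested 7.3% were called lower and 4.87% higher, so 1 gene higher among 13 is near that share. Esrra, a nuclear receptor that activates respiratory genes, differed by -0.42 ± 0.09 (SE, adjusted p = 0.00468). Nrf1, a factor known to bind promoters of respiratory genes, was higher, at 0.25 ± 0.07 (SE, adjusted p = 0.0327). Ppargc1a, the coactivator PGC-1α, and Tfb2m, a mitochondrial transcription factor, made up the others called, at -0.50 and -0.31. Gabpa, the DNA-binding subunit of GABP, differed by 0.04 ± 0.07 (SE, adjusted p = 0.794).

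**Figure D5:**
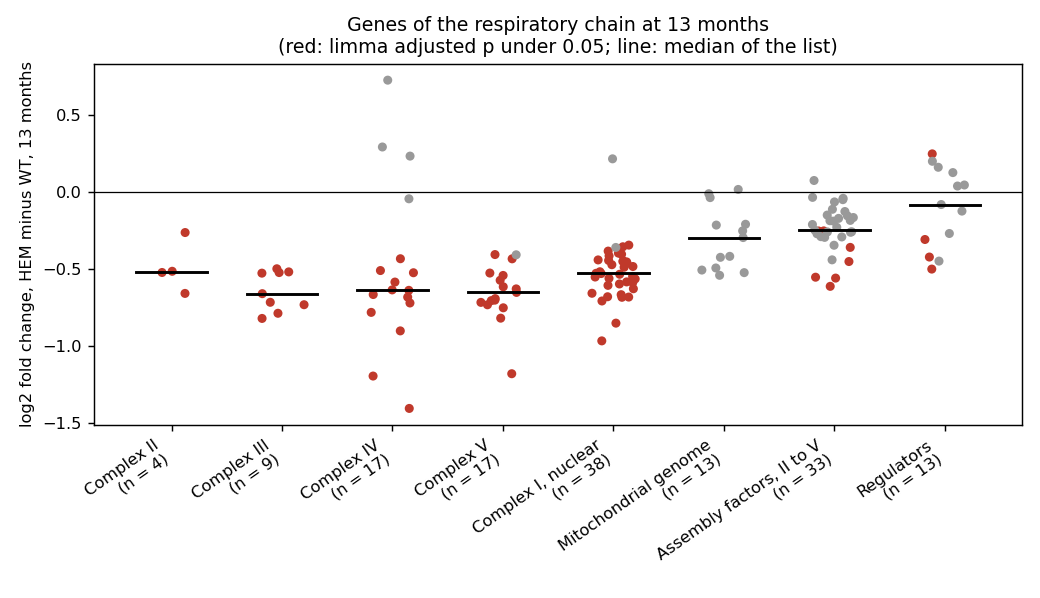
Points give the log2 fold change, HEM minus WT at 13 months, of single genes in each complex and in related lists, in red where the adjusted p was under 0.05, and lines give the medians. The lists for complexes I to V have medians of -0.52 to -0.66, the mitochondrial genome -0.29, assembly factors -0.25 and regulators -0.08. The complex I list includes Ndufa4 and Ndufa4l2.

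Across the 19 libraries 34 of 47 genes had a Pearson correlation of at least 0.9 with the mean log2 level of the other members, and 41 at least 0.8. The least alike were Cox6a2 (-0.13), Cox7b2 (-0.10), Cox4i2 (0.05), Cox7a2l (0.39) and Atp5s (0.65). Outside the set the genes most alike were Ndufb10 (0.979), Sod1 (0.976), Ndufc1 (0.972), Gpx4 (0.970) and Ndufs5 (0.966). The points share libraries, scaling and the group differences, so these correlations only describe the data. Sod1, superoxide dismutase 1, averaged 16915 normalized counts in HEM mice and 26539.8 in WT mice at 13 months, and Gpx4, a glutathione peroxidase, 22516 in HEM mice and 37562 in WT mice. The most read pseudogene named for a subunit, Atp5l2-ps, averaged 96.5 normalized counts in HEM mice and 101 in WT mice at 13 months, against 3806 ± 592 in HEM mice and 6294 ± 853 in WT mice for Atp5l (SD, n = 8 and 4). The subunit gene Cox7b2, read at low counts, averaged less than that pseudogene in each group.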

How the data were processed

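Microglia-enriched brain RNA of 19 mice (8 HEM and 4 WT at 13 months, 4 HEM and 3 WT at 3 months) was analysed, with groups taken from the sample titles. Per the submitters' processing notes, the tools were Trimmomatic, HISAT2, featureCounts and DESeq2 on build mm10; versions, annotation, strand setting and filters are not given in the sources used here, so reads of overlapping antisense genes cannot be told apart. The authors deposited gene signal values that are counts divided by 1 size factor per library; the values are whole multiples of a step per library (tolerance 0.01), and reads were recovered from those steps for the count tests. Genes with a value of at least 10 in 3 libraries (23973) were fitted together with limma 3.58.1 (trend, robust; R 4.3.3) on log2(value + 1), with 4 group means and Benjamini-Hochberg adjustment over all genes. A fold change on this scale understates changes of low genes. The fit was tested on simulated data. Alternatives used edgeR 4.0.16, DESeq2 1.42.0, other scalings, filters, pseudocounts, covariates, a replicate block and left-out libraries. Labels give 1 library per mouse, and p-values measure the spread between these mice. Animal numbers are not said to pair samples, and same-numbered libraries deviated together by correlations of -0.07 to 0.17, so no block was used. The subunit genes and the other lists were chosen with earlier results of these data known, and the support their counts give is limited by that. Genes given with full statistics were, per complex, the 2 smallest and the largest p at 13 months, the smallest p of each other comparison, the members of isoform pairs, and 2 called genes of each other list; further members were chosen after their values were seen. One ID that the annotation lists for Atp5o was not used here.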

Additional observations from a re-analysis of the deposited data

Results flagged for a closer look

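Of 96 groups of 4 to 10 libraries looked at, 6 held a library far from the rest by Dixon's criterion, and chance flags about 5% of groups. HEM library 7 at 13 months stood high for Atp5h, at 17813 normalized counts, with the other HEM libraries at 10746.5 to 13554. The same library stood high for Sdha, at 30384, with the others at 22565 to 25444, and for the mean log2 level of complex II, at 13.72, with the others at 13.33 to 13.48. WT library 6 at 13 months stood low for Cox6b2, at 3671, with the other WT libraries at 5366 to 5786. HEM library 3 at 3 months stood low for Cox6b2, at 2268, with the others at 3516 to 3743, and high for Cox6a1, at 26928, with the others at 20771 to 20923.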

How the results depend on the processing

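At 13 months the count of subunit genes called lower in HEM mice was 39 to 43 under 11 of 14 alternatives (edgeR, DESeq2, scaling, weights, filters, pseudocounts, groups alone, length and GC, and without 3 libraries that stand apart), with 5.42% to 17.1% of all genes called in either direction, 38 to 42 when 1 library was left out, with 7.12% to 13.7% of all genes, and 0 with the choroid plexus covariate, with the neutrophil and red blood cell covariate and with a replicate block. With the replicate block 44 of the 47 genes had an unadjusted p under 0.05, beside 2717 of the 23973 genes tested, and the median was -0.66. Under each of these 3 settings 0% of all genes were called. The pairing behind that block is not stated by the labels. The 3 libraries that stand apart were HEM libraries 1 and 11 at 13 months and HEM library 3 at 3 months. HEM library 7 and WT library 6 at 13 months stayed in that fit. For 13 against 3 months in WT mice the count of 14 became 8 with edgeR, 38 with DESeq2, 40 with weights, 6 without a filter, 22 with a filter at 50, 2 with the compared groups alone (0.267%, 3.47%, 3.93%, 0.110%, 1.07% and 0.217% of all genes called higher, in that order), 0 with either covariate and 0 with the replicate block, and ran from 0 to 35 when 1 library was left out. In HEM mice it became 1 with DESeq2 and 1 with weights (5.46% and 6.86% of all genes called in either direction), and ran from 0 to 1. For the difference of the genotype effects it became 31 with DESeq2 and 37 with weights (2.35% and 2.84% of all genes called lower), and ran from 0 to 26. Isoform pairs ran from 0 to 6, and counts at 3 months stayed at 0, where the median over the subunit genes turned to -0.075 with the replicate block. Cox6a2 at 13 months turned to -0.20, -0.15 and -0.18 with the choroid plexus covariate, the blood covariate and the replicate block. Cox7a2l turned to 0.0022 with weights, 0.082 and 0.066 with the covariates and 0.055 without 3 libraries. Sdhd at 3 months turned to -0.049 with the replicate block. With 1 library left out, Cox4i2 ran from -0.016 to 0.53 and Cox7a2l from -0.18 to 0.074 at 13 months. The 3-month pair differences ran from -0.39 to 0.43 for Cox6a2 and Cox6a1, from -0.13 to 0.19 for Cox6b2 and Cox6b1, from -0.0021 to 0.29 for Cox7a2l and Cox7a2, from -0.15 to 0.20 for Cox8b and Cox8a, and from -0.075 to 0.18 for Atp5g2 and Atp5g3. The cause of these changes was not tested. Groups of 3 to 8 libraries limit the precision.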
